A study of Mus musculus with 14 samples.

Results

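Mbd2, Myc and 8 genes of glucose uptake and glycolysis (Slc2a1, Hk2, Pfkp, Aldoa, Pgk1, Eno1, Pkm and Ldha) were followed in mouse embryonic stem cells (ESCs) with and without Drosha or Dicer. The members were found by name, as the rows of the RNA-seq table that carry these 10 symbols, which is 10 of 22376 genes, and as the Degradome-seq pile-up sites whose gene column names one of them. That column names a member at 4 of 3919 sites of the Drosha table and at 2 of 4666 sites of the Dicer table, which makes 5 positions in 5 members: Slc2a1, Hk2, Pfkp, Pkm and Ldha. A further 14 positions lie inside or right next to a member without naming it, and through these Eno1 also has a site. Mbd2, Myc, Aldoa and Pgk1 had no site in either table.

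For Degradome-seq, a linker is ligated to the 5′ ends of polyadenylated RNA molecules, which accept it where the end is a monophosphate, and the first base of a read is thus the first base after the linker. RNase III enzymes, Drosha and Dicer among them, leave ends of this kind. The Drosha line was Drosha fl/fl with CreERT2 in the ROSA26 locus. Its control cells were not treated, and its Drosha-deficient cells received 100 nM 4-hydroxytamoxifen for 72 h and then 48 h of medium without the drug, with 2 Degradome-seq libraries and 3 RNA-seq libraries in each group. The Dicer line was Dicer fl/fl. Its controls were transduced with a GFP retrovirus and its Dicer-deficient cells with a GFP-Cre retrovirus, and GFP+ cells were taken by sorting on day 3 and kept in culture for 2 days after that, with 2 Degradome-seq libraries in each group. Because the untreated Drosha controls saw no drug, the effect of 4-hydroxytamoxifen and that of the lost enzyme cannot be told apart. All cells were grown on mouse embryonic fibroblast feeders, and nothing in the labels says whether replicates were separate cultures, so p-values measure the spread between these libraries, which may be technical.

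The Degradome-seq libraries held between 28680000 and 34550000 mapped reads, and a floor of 3 reads corresponded to between 0.0868 and 0.105 RPM, the number of reads starting at a site scaled to 1000000 mapped reads. Floors and errors of single libraries cover counting error only, since PCR copies are not independent molecules. In RNA-seq, all 12 ESC genes looked up lay between 3.66 (Tbx3) and 10.88 (Dppa5a) in log2 CPM per kb of exon, and the 12 genes of feeder fibroblasts between −3.96 (Twist2) and 4.48 (Tagln). Degradome-seq and RNA-seq are bulk measures, in which fewer cells of a type and less RNA per cell cannot be told apart. The RNA-seq table gives a mean over both groups and no value per library, so the loss of Drosha mRNA itself was not checked and the difference of the members between control and Drosha-deficient cells was not analysed here.

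Glycolysis turns glucose into pyruvate in the cytosol, and pluripotent cells are known for drawing on it heavily. Slc2a1 encodes the glucose transporter GLUT1, Hk2 a hexokinase that traps glucose as glucose 6-phosphate, and Pfkp a phosphofructokinase of the committed step. Aldoa (aldolase), Pgk1 (phosphoglycerate kinase), Eno1 (enolase) and Pkm (pyruvate kinase) carry later steps, and Ldha (lactate dehydrogenase A) reduces pyruvate to lactate. Mbd2 encodes a methyl-CpG-binding protein of the NuRD repressor complex and Myc a transcription factor that is known to bind many glycolysis genes. The miR-290 cluster supplies most of the miRNAs of mouse ESCs, depends on both Drosha and Dicer, and is known to target Mbd2.

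The sequences at the 5 named positions are shown because they carry the comparison. Each is read from the GRCm38 reference along the strand of the site. The lower-case letters are the 10 bases upstream of the site, which the reads do not hold, and the capitals are the first 20 bases of the reads.
Ldha, chr7:46845833-46845862, plus strand: gctgctctgcGTGCTGGAGCCACTGTCGCC
Slc2a1, chr4:119108794-119108823, plus strand: gctctcccccAAGAGCAGAGGCTTGCTTGT
Hk2, chr6:82727342-82727371, minus strand: ggaagggagcGGCTCTCATCACTGCTGTGG
Pfkp, chr13:6595644-6595673, minus strand: ctctagtggaCAGCTGTGATGATGGACATT
Pkm, chr9:59665870-59665899, plus strand: ttcccgatctGTGGAGATGCTGAAGGAGAT

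The 5 positions fall in different parts of their genes. The Ldha site at 46845843 of chromosome 7 lies in the untranslated part of exon 1 (46845839 to 46845917) of Ldha-202, 39 nt after the nearest RefSeq start, and is also the annotated first base of Ldha-204. The Slc2a1 site at 119108804 of chromosome 4 lies in untranslated exon 1 of Slc2a1-201 (119108711 to 119108972), 59 nt after the nearest RefSeq start, and is the annotated first base of Slc2a1-202. Sites within 5 nt of an annotated transcript start made up 5.82% of the Drosha table and 4.8% of the Dicer table. The Hk2 site at 82727361 of chromosome 6 lies in the coding part of exon 18 of 18, and the Pkm site at 59665880 of chromosome 9 in coding exon 3 of 11. The Pfkp site at 6595663 of chromosome 13 lies in exon 16 of 16 of Pfkp-212, a transcript annotated as non-coding.

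The bases upstream of the Pkm site end in the last 7 bases of the RNA linker used for the libraries, and the first 30 bases from that site on occur at 5 places in the genome. The other 4 named positions share no base with the end of the linker and their first 30 bases occur once. Over all sites, at least 3 upstream bases matched the end of the linker at 30.8% of the Drosha table and 17.4% of the Dicer table, and among sites named for a gene at 11% and 9.35%. The part of this match in the values below was not tested.

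In the Drosha comparison, the sites in Ldha, Hk2 and Pfkp were decreased in Drosha-deficient cells and the site in Slc2a1 did not pass the test. Sites count as decreased here where the log2 fold change is below −1.5 and the FDR is under 0.05, by limma on log2 of RPM plus 0.1, so that fold changes understate those of low sites. Of the 4 named sites 3 were called, where 37.6% of all 3919 sites were. At 4 of 4 each control library lay above each Drosha-deficient library, where 59.9% of all sites showed this order. According to the paper, a site was kept only if the model picked it in both control replicates, which can favour sites that are high in control cells. This holds for members and all other sites alike, and its part in the order and the calls was not tested. The median over all sites lay at −0.93 on the log2 scale, and the members are read against it.

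Among the sites of the Drosha table that are named for a member, the Ldha site was the deepest. It held 7.18 and 3.49 RPM in the control libraries (206 and 102 reads) and 1.45 and 1.15 RPM in the Drosha-deficient libraries (45 and 33 reads). The lower control library was above both Drosha-deficient libraries, although the controls differed from each other more than at the other named sites. The means were 5.34 ± 2.61 RPM (SD, n = 2) and 1.3 ± 0.216 RPM (SD, n = 2), and the fold change on the log2 scale was −1.88 ± 0.44 (standard error; limma, FDR = 0.00151), which is 3.68 times lower in Drosha-deficient cells.

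At the Hk2 site the control libraries held 2.82 and 2.09 RPM and the Drosha-deficient libraries 0.71 and 0.521 RPM. The groups stood apart, at −1.83 ± 0.46 on the log2 scale (standard error; limma, FDR = 0.00261). At the Pfkp site the control libraries held 1.81 and 1.47 RPM and the Drosha-deficient libraries 0.258 and 0.417 RPM, which come from 8 and 12 reads. The log2 fold change of −2.01 ± 0.51 (standard error) had an FDR of 0.00289 by limma, and here too the groups did not overlap.

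Slc2a1 was the member with the smallest difference. Its site held 1.95 and 2.36 RPM in control cells and 1.13 and 1.18 RPM in Drosha-deficient cells, so the groups did not overlap. The log2 fold change of −0.84 (95% interval −1.75 to 0.07, FDR = 0.101 by limma) was close to the median of all sites. With library sizes taken from uniquely mapped reads it was −1.11 (FDR = 0.0299 by limma), while the median of all sites moved to −1.20.

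The 3 calls depend on the scale, the pseudocount and 1 library. With each library centred on the median of its sites, which brings the median of all sites from −0.93 to −0.34, the log2 fold changes were −1.28 (Ldha), −1.24 (Hk2), −1.42 (Pfkp) and −0.25 (Slc2a1), and none passed −1.5. In edgeR's quasi-likelihood test on the whole reads behind the RPM, with TMM scaling, the median of all sites lay at −0.03 and the log2 fold changes were −1.07 (Ldha), −1.05 (Hk2), −1.32 (Pfkp) and 0.02 (Slc2a1), again with 0 calls among the named sites. With the mapped reads as library sizes in place of TMM, an alternative chosen after seeing the data, the same test gave −2.03 (Ldha), −1.99 (Hk2) and −2.27 (Pfkp), and 3 calls. Of all calls 79.7% were decreases with limma as reported, 59.1% with centring and 44.9% with edgeR and TMM. A pseudocount of 1 RPM left 0 of the 3 calls and one of 0.5 RPM left 1. Without the first control library the log2 fold changes by limma were −1.37 for Ldha (FDR = 0.0911), −1.62 for Hk2 (FDR = 0.0719) and −1.87 for Pfkp (FDR = 0.0539).

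**Figure D1:**
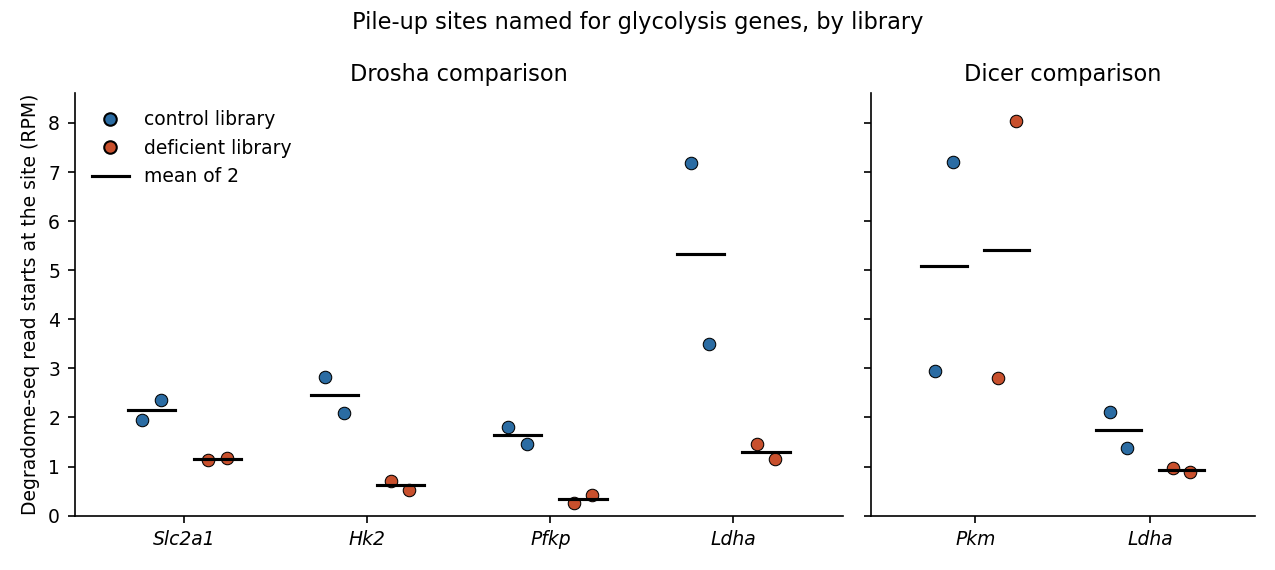
Read starts in RPM (y axis) at the pile-up sites named for a member, with 1 point per library and a bar at the mean of 2, for the Drosha comparison (left) and the Dicer comparison (right). The control points of Slc2a1, Hk2, Pfkp and Ldha lie above the Drosha-deficient points, while the Pkm points of both Dicer groups spread from about the same low to about the same high value (2.8 to 8.03 RPM in Dicer-deficient cells).

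In the Dicer comparison neither named site passed the test, and neither did any other site. Of 4666 sites 0 were called decreased (0%), and limma also called 0 increased, with a smallest FDR of 0.465. At an unadjusted p under 0.05 limma gave 459 sites, of which 60 lay below −1.5 and 54 above 1.5 on the log2 scale. The control libraries were both higher than both deficient ones at 1 of 2 named sites and at 27.4% of all sites.

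The Ldha site held 2.11 and 1.37 RPM in the GFP controls and 0.98 and 0.886 RPM in Dicer-deficient cells. The groups did not overlap, and the log2 fold change was −0.81 (95% interval −1.98 to 0.37, FDR = 0.572 by limma). In the Pkm site the replicates differed more than the groups. It held 2.95 and 7.2 RPM in controls and 2.8 and 8.03 RPM in Dicer-deficient cells, and the log2 fold change was 0.04 (95% interval −1.52 to 1.61, FDR = 0.985 by limma). The sign of the Pkm value turned without the first control library (−0.59) and without the second Dicer-deficient library (−0.70).

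The Ldha site is the single site named for a member that is in both tables, which allows a test of the difference itself. The log2 fold change was lower by 1.07 in the Drosha comparison (difference −1.07, 95% interval −2.62 to 0.48, FDR = 0.267 by limma over the 2595 sites in both tables), so a difference between the enzymes was not shown at this site, nor was likeness. The difference was −0.49 with centring, and −0.56 without the first and −1.58 without the second Drosha control library. Of those 2595 sites 4.78% passed that test.

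**Figure D2:**
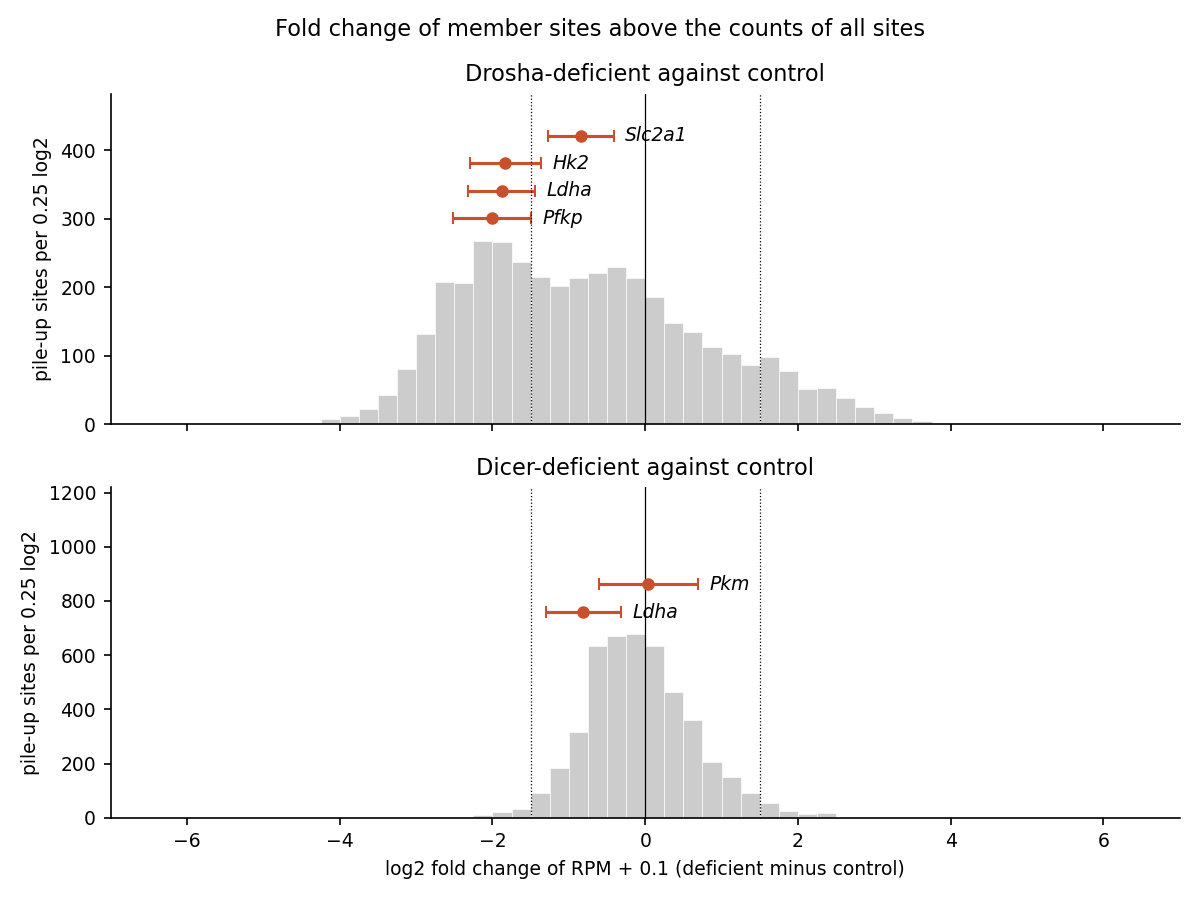
Number of pile-up sites per 0.25 of log2 fold change (bars, x axis: deficient minus control on log2 of RPM plus 0.1) in the Drosha comparison (top) and the Dicer comparison (bottom), with the named member sites as points with standard errors drawn above the bars and dotted lines at −1.5 and 1.5. Ldha, Hk2 and Pfkp sit near −2 within a broad Drosha distribution whose median is −0.93, and Pkm (0.04) and Ldha (−0.81) lie within the narrower Dicer distribution around −0.12.

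The study lists a stem-loop in Ldha. It chose its stem-loops from Drosha-dependent sites of these Degradome-seq libraries, together with public small RNA libraries and a predicted 3′ overhang. The decrease at the pile-up site was thus part of the choice, and the listing is not independent evidence of that decrease. The listed sequence spans 46845789 to 46845857 of chromosome 7 (69 nt), and the pile-up site lies 54 nt after its first base, on the 3′ side. The nearest RefSeq start lies 39 nt before the site, so the listed sequence begins upstream of that start. Whether a transcript holds the whole sequence was not tested. Refolded with RNAfold, the listed sequence had a minimum free energy of −21.5 kcal/mol, or −0.31 kcal/mol per nt, and 60.9% of its bases were paired. The 68 listed miRNA stem-loops had a median of −41.4 kcal/mol (−55.2 to −19.9), −0.45 per nt and 72.2% paired bases. The 35 other stem-loops of the list that are no miRNA and were used here had a median of −22.2 kcal/mol (−41.3 to −10.2), −0.26 per nt and 59.4% paired bases, and Ldha lies within the range of energies of both sets. No other member has a stem-loop among those used here. The paper reports more stem-loops that are no miRNA than were used here, so neither these medians nor this absence covers all of them.

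Besides the named sites, 14 unnamed positions lay in or next to members, and 9 of them belong to Hk2. On the opposite strand of a member lay 11 of the 14, all opposite exons (9 opposite coding sequence and 2 opposite an untranslated region), and 0 of these 11 fell in an annotated gene of their own strand. Of 1620 sites that name a transcript, 1614 lay inside it on its strand. Sites opposite a gene thus tend to go unnamed, and these counts follow in part from taking unnamed sites. The share of opposite-strand positions among all unnamed sites was not counted. Some of the 11 positions are shown because the deepest reads within the members start there. Capitals are the first 20 bases of the reads and lower-case letters the 10 bases upstream.
Hk2, chr6:82727289-82727318, plus strand: agtcccgtctGCTCCAAGGTTCTATCTCTG
Hk2, chr6:82729545-82729574, plus strand: ctctcgatctGAGACAGGAACTTAGTTTCG
Hk2, chr6:82739512-82739541, plus strand: cacttactctTCAATATCCGAGACATCTTT
Pfkp, chr13:6598791-6598820, plus strand: tctgcgatctTCTCCAAGTACTTTCCAGGT
Slc2a1, chr4:119133380-119133409, minus strand: tctttcatctCCTGCAGGTCTCGGGTCACA

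At 8 of the 10 opposite-strand sites of the Drosha table the upstream bases end in at least 3 bases of the linker's end (6 bases at 82729555 of Hk2 and at 6598801 of Pfkp), where 35.7% of its sites without a gene name do so. Of those in the Dicer table, 4 of 5 do so, against 19.2%. The sites on the members' own strand that were not named share no base with it. Whether this match has a part in the changes below was not tested.

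In Drosha-deficient cells all 7 opposite-strand sites of Hk2 were lower, and 6 of them were called decreased, with log2 fold changes from −3.35 to −2.60. Of the 12 unnamed member sites that the Drosha table holds, 9 were called decreased (37.6% of all sites were). The groups stood apart, controls higher, at 12 of 12 (59.9% of all sites). These sites, too, had been kept because the model picked them in both control replicates, and the part of that choice was not tested. All 9 of these calls were on the opposite strand, where 10 of the 12 sites lay, 6 of them in Hk2, 1 each in Pfkp, Pkm and Slc2a1. The site at 82727299, opposite the 3′ untranslated part of Hk2 exon 18, held 64.8 and 64.6 RPM in control cells and 8.1 and 8.55 RPM in Drosha-deficient cells. It is the deepest site in any member, and its groups stood far apart, at −2.94 ± 0.32 on the log2 scale (standard error; limma, FDR = 9.5e-06).

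Further along Hk2 the pattern recurred. Opposite exon 16, at 82729555, control cells held 29.7 and 19.2 RPM and Drosha-deficient cells 3.39 and 3.09 RPM (log2 fold change −2.84, FDR = 1.6e-05 by limma). Opposite exon 8, at 82739522, the values were 15.9 and 11.9 RPM against 1.74 and 0.904 RPM, a log2 fold change of −3.35 (FDR = 1.3e-05 by limma). The control libraries were thus above the Drosha-deficient libraries at both. The sites opposite exon 17 (82728901) and the coding part of exon 18 (82727435) had log2 fold changes of −2.83 and −2.60, and the former rests on 5 reads in each Drosha-deficient library (0.161 and 0.174 RPM). A position 2 bases from the deepest one, 82727301, held 2 and 5 reads in control cells and 0 in both Drosha-deficient libraries, too few for a fold change.

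Outside Hk2, each opposite-strand site of the Drosha table was shallower than the 3 deepest of Hk2. The Slc2a1 site at 119133399, opposite coding exon 6, held 6.76 and 7.32 RPM in control cells and 3.03 and 1.81 RPM in Drosha-deficient cells (log2 fold change −1.55, FDR = 0.00277 by limma). Its call was lost without the first control library (−1.60, FDR = 0.0615 by limma), without the second (−1.49, FDR = 0.0712) and without the second Drosha-deficient library (−1.19, FDR = 0.0267). The Pfkp site at 6598801 held 1.92 and 1.44 RPM against 0.226 and 0.486 RPM, a log2 fold change of −2.01 (FDR = 0.00337 by limma), and was not called without the first control library (−1.81, FDR = 0.0697). The Pkm site at 59671582 held 1.29 and 1.16 RPM against 0.129 and 0.278 RPM, a log2 fold change of −2.17 (FDR = 0.00327 by limma), and its Drosha-deficient values rest on 4 and 8 reads. These 3 calls were also lost with a pseudocount of 1 RPM (−1.26 for Slc2a1, −0.98 for Pfkp and −0.89 for Pkm), with one of 0.5 RPM (−1.40, −1.35 and −1.30) and by edgeR with TMM (−0.64, −1.26 and −1.63), and those of Slc2a1 (−0.95) and Pfkp (−1.42) with centring. The Hk2 site at 82728901 lost its call at 1 RPM (−1.27). Of the 9 calls 5 were left with a pseudocount of 1 RPM, 6 with 0.5 RPM, 7 with centring and 6 by edgeR with TMM, and of these 5, 6, 6 and 6 lay in Hk2.

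Of the 8 unnamed member sites of the Dicer table, 0 were called (0% of all sites), and the groups stood apart, controls higher, at 3 of 8 (27.4% of all sites). The deepest Hk2 site held 31.9 and 15.9 RPM in controls and 16 and 9.56 RPM in Dicer-deficient cells, with overlapping groups and a log2 fold change of −0.86 (95% interval −1.97 to 0.26). At the site opposite exon 8 (82739522) the groups stood apart, with 5.76 and 3.5 RPM in controls and 1.99 and 1.89 RPM in Dicer-deficient cells. Its log2 fold change was −1.17 (95% interval −2.18 to −0.15, unadjusted p = 0.0303, FDR = 0.47 by limma). At the site opposite exon 16 the libraries of a group differed far more than the group means (7.13 and 7.25 RPM), with 11.9 and 2.36 RPM against 10.4 and 4.06 RPM, and its value of 0.29 turned negative without the second control library (−0.86) and without the first Dicer-deficient library (−0.38). A site 2 nt upstream of the annotated Hk2 start (82774456) held 6.17 and 4.4 RPM in controls and 4.66 and 5.1 RPM in Dicer-deficient cells, a difference within the spread (log2 fold change −0.09, 95% interval −0.98 to 0.80).

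Of the 7 member sites that both tables hold, 7 had a lower value in the Drosha comparison than in the Dicer comparison, as did 60.6% of all 2595 shared sites, and 0 passed the test of the difference after adjustment, where 4.78% of all sites did. The differences at the opposite-strand Hk2 sites were −3.13 (82729555, unadjusted p = 0.0128, FDR = 0.0776 by limma), −2.18 (82739522, unadjusted p = 0.00603, FDR = 0.0607) and −2.09 (82727299, unadjusted p = 0.00536, FDR = 0.0595). The smallest was at Eno1, with −0.22 (95% interval −1.52 to 1.09), and there the order depends on the scale. With centring the Eno1 log2 fold change was −0.74 in the Drosha and −1.11 in the Dicer comparison, by edgeR with TMM −0.51 and −0.96, and with a pseudocount of 1 RPM −0.81 and −0.85, so that the Drosha value was the higher one.

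**Figure D3:**
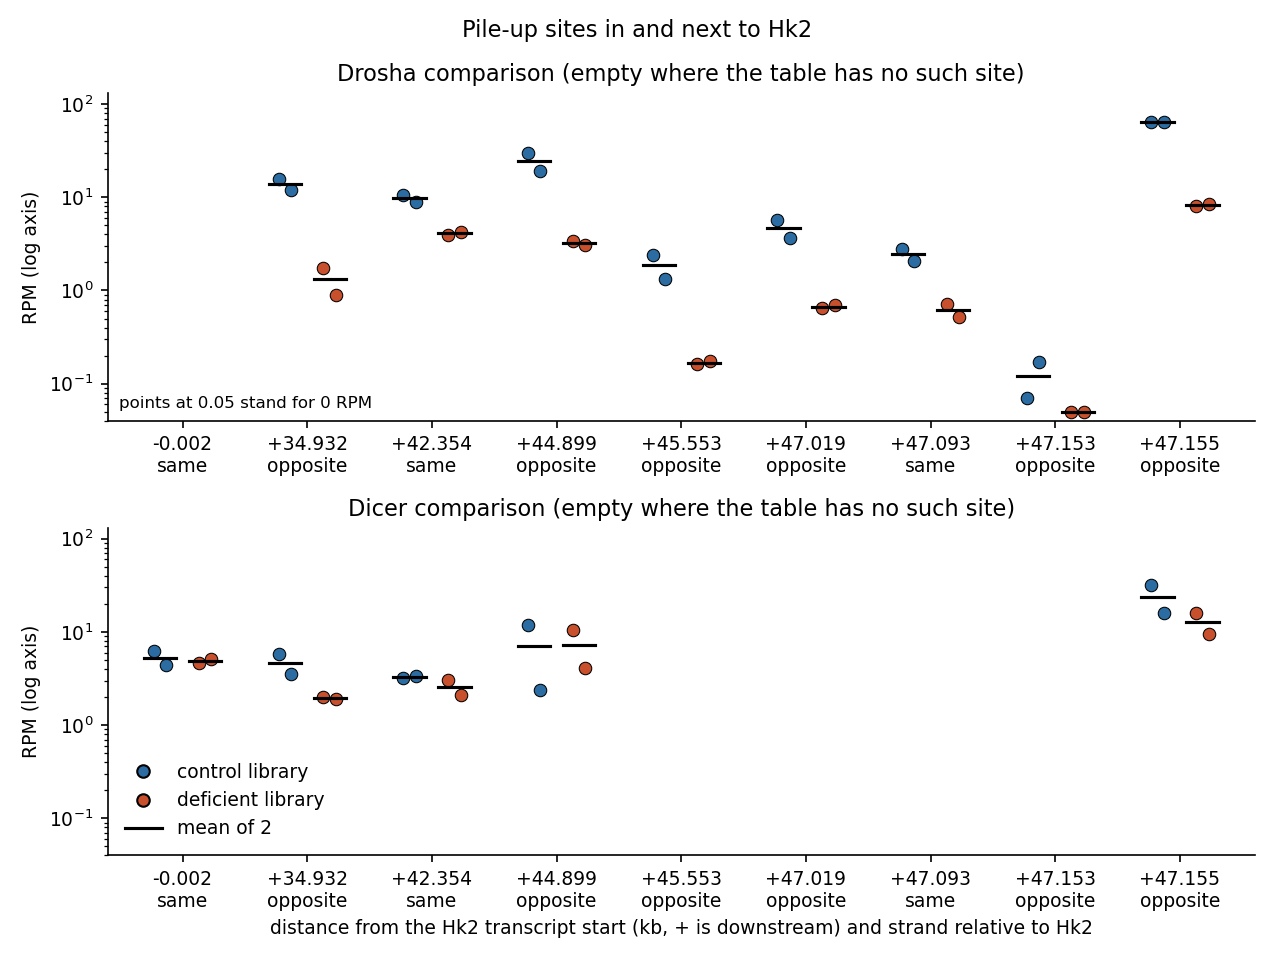
RPM (y axis, log scale) at the pile-up sites in or next to Hk2 that are reported here, ordered by distance from the annotated Hk2 start, with 1 point per library and a bar at the mean, for the Drosha table (top) and the Dicer table (bottom). On the opposite strand the control points lie well above the Drosha-deficient ones, as at the deepest site with 64.8 and 64.6 against 8.1 and 8.55 RPM, while the Dicer groups stand apart at 82739522 (5.76 and 3.5 against 1.99 and 1.89 RPM) and overlap at the other opposite-strand sites shown.

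**Figure D4:**
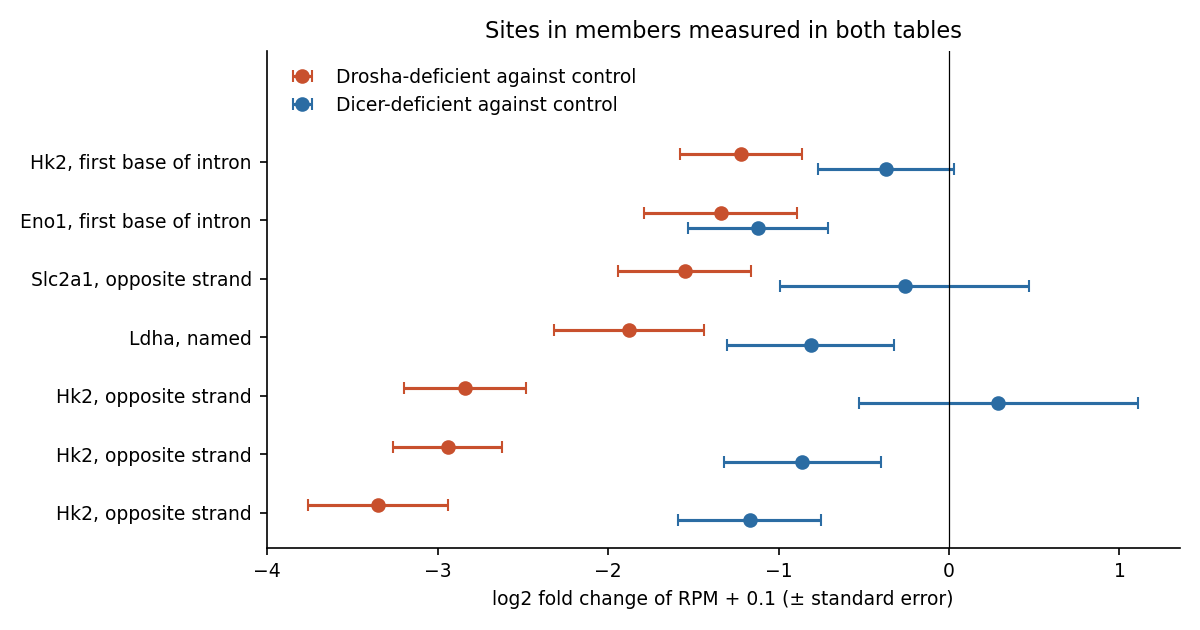
Log2 fold change with standard error (x axis) at the 7 sites in members that both tables hold, for Drosha-deficient against control and Dicer-deficient against control cells. On the scale plotted the Drosha value is the lower one at each site, from −3.35 to −1.22, and lies nearest to the Dicer value at Eno1 (−1.34 and −1.12), where it is the higher one with centring (−0.74 and −1.11), by edgeR with TMM (−0.51 and −0.96) and with a pseudocount of 1 RPM (−0.81 and −0.85).

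Both remaining sites on the members' own strand that are in both tables begin at the first base of an annotated intron, right after the end of an exon. They are shown with the intron in capitals.
Eno1, chr4:150245328-150245357, plus strand, intron 3 of 7 of Eno1-201: aacaaagaagGTAAAGACACTGAGCGCTGT
Hk2, chr6:82732081-82732110, minus strand, intron 13 of 17 of Hk2-201: ccggcgagagGTGGGAGGCGTGGTGCAAGG

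Sites at the first base of an annotated intron were 5.95% of the Drosha table and 6.49% of the Dicer table. The Eno1 site held 2.16 and 2.12 RPM in control cells and 0.742 and 0.834 RPM without Drosha, a change of −1.34 ± 0.45 on the log2 scale (standard error; limma, FDR = 0.0154) that did not reach −1.5. In the Dicer line it held 4.66 and 3.61 RPM against 2.2 and 1.53 RPM, a log2 fold change of −1.12 (95% interval −2.12 to −0.12, FDR = 0.471 by limma), so the controls were the higher group in both lines. The Hk2 intron site held 10.6 and 8.83 RPM against 3.97 and 4.24 RPM in the Drosha line, a log2 fold change of −1.22 (FDR = 0.00723 by limma), and 3.21 and 3.38 RPM against 3.04 and 2.11 RPM in the Dicer line (log2 fold change −0.37, FDR = 0.73 by limma). By edgeR with TMM the Drosha values of the Eno1 and Hk2 sites were −0.51 and −0.29. With library sizes from uniquely mapped reads the Eno1 value was −1.62 (FDR = 0.00397 by limma) and was called, which makes 10 calls among the 12 unnamed sites.

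Among 59 other genes of these pathways, 4 had a pile-up site, at 5 positions. Of the glycolysis genes, Ldhb, the other main subunit of lactate dehydrogenase, held 15.8 and 12.3 RPM in control cells and 5.1 and 4.48 RPM in Drosha-deficient cells, a decrease of 1.52 on the log2 scale (log2 fold change −1.52, FDR = 0.00147 by limma) just past the threshold. It was not called without the first control library (−1.35, FDR = 0.0515) or without the second Drosha-deficient library (−1.43, FDR = 0.00532), nor with a pseudocount of 1 RPM (−1.37) or 0.5 RPM (−1.45), with centring (−0.93) or by edgeR with TMM (−0.61). In the Dicer line it held 3.24 and 1.75 RPM against 4.83 and 2.11 RPM, with overlapping groups. The first 30 bases of the Ldhb site occur at 2 places in the genome.

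Gapdh, the glyceraldehyde 3-phosphate dehydrogenase of glycolysis, had a site only in the Dicer table, at the first base of intron 5 of 6, with 1.48 and 1.05 RPM in controls and 0.642 and 0.305 RPM in Dicer-deficient cells (log2 fold change −1.29, FDR = 0.534 by limma). Of the methyl-CpG and NuRD genes, Mbd1 held 2.2 and 2.29 RPM against 0.903 and 0.73 RPM in the Drosha line (log2 fold change −1.36, FDR = 0.0138 by limma), short of −1.5. It was called with library sizes from uniquely mapped reads (−1.64, FDR = 0.00344 by limma), and lay at −0.54 (FDR = 0.293) by edgeR with TMM. Mta2, a subunit of NuRD, had 2 sites in the Dicer table, with log2 fold changes of −0.98 and −0.35 that did not pass the test. Of the 12 genes of the MYC network, 0 had a site.

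The sites most like the called member sites across the 4 libraries of the Drosha table were found by Pearson correlation of log2 of RPM plus 0.1, given as a description without a p-value. For Hk2 they included sites named for 2610318N02Rik and Bsg (1.0000 for both), for Pfkp one named for Gnl3 together with Gm24916 (1.0000), and for Ldha sites named for Ilrun and Kifc1 (0.9999 for both). With 4 libraries in 2 groups such values are common, and 396, 286 and 148 sites exceeded 0.99 for Hk2, Pfkp and Ldha.

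RNA-seq gives the level of all 10 members, as the authors' mean log2 CPM over the control and Drosha-deficient libraries together, which has no error or n of its own. To compare genes, the level was taken per kb of annotated exon, and ranks are among the 22353 genes with a length. Of the 10 members 8 lay above 90% of these genes. The median of the members was 6.79, against 1.05 over all genes.

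Aldoa, Pkm and Ldha stood highest. Aldoa had a level of 10.38 (rank 19), Pkm one of 9.55 (rank 40) and Ldha 9.13 (rank 65). Eno1 (7.42, rank 267) and Slc2a1 (7.38, rank 272) were next and close to each other, then Hk2 (6.21) and Pfkp (6.06), and Pgk1 was the lowest of the glycolysis members with 5.36. Neighbours in this order cannot be compared with a spread, since the table holds a single mean for each gene.

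Reads that map to several places may bear on these levels, and the share of such reads was not measured. Copies were sought for stretches of 32 bases, which are shorter than the RNA-seq reads that the paper describes. Of all stretches of 32 bases in the mRNA, 94% occur elsewhere in the genome for Pgk1, 77% for Eno1, 61.4% for Pkm, 50.1% for Ldha and 38.7% for Aldoa, against 0.547% for Hk2, 0.365% for Pfkp and 0% for Slc2a1, Mbd2 and Myc. Gapdh, a gene of the same pathway with 85.8%, had a level of 2.89. How the authors counted such reads is not given in the sources used here, so the levels of Pgk1, Eno1, Pkm, Ldha and Aldoa are uncertain, and their part in the order was not tested. Aldoa is listed in 2 rows, and the row of the main gene is used here.

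Mbd2 and Myc were the lowest members. Mbd2 had a level of 3.60, above 78% of genes, and among genes with a mean log2 CPM of at least 0 it was above 66.1%. Among its relatives, Mbd3 (5.46) was 3.63 times higher, and Mbd1 (2.06) was lower. Of the 18 other methyl-CpG and NuRD genes 9 were above 90% of genes, led by the histone-binding subunits Rbbp7 (6.58) and Rbbp4 (6.19).

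Myc was at −2.67 per kb, a mean log2 CPM of −1.22 (0.428 CPM), and 15.9% of genes lay below it. Its relatives stood higher, Mycn at 4.57, which is 150 times the Myc level per kb, and Mycl at 1.29, and Max, the partner of MYC proteins, at 4.74. The table gives no value per library against which this low Myc level could be checked.

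Most glycolysis members that were compared with relatives had the highest level of their family. Pgk1 was compared with none. Per kb, Aldoa was 41.8 times Aldoc, Eno1 was 109 times Eno2, 19.5 times Eno3 and 5.8 times Eno1b, and Ldha was 257 times Ldhc. Hk2 was 1.94 times Hk1, and Ldha and Ldhb differed by a factor of 1.16. The exceptions were Slc2a1, which was 1.2 times lower than Slc2a3, and Pfkp, which was 1.23 times lower than Pfkl. The Pfkp order rests on its length of 13401 annotated exon bases against 6675 for Pfkl, and without the division by length Pfkp was higher, with 896 against 548 CPM. Of the other glycolysis and lactate export genes, 27 of 29 were in the table and 12 of these were above 90% of genes, among them Tpi1 (8.58), Gpi1 (8.06) and the lactate exporter Slc16a1 (5.87).

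**Figure D5:**
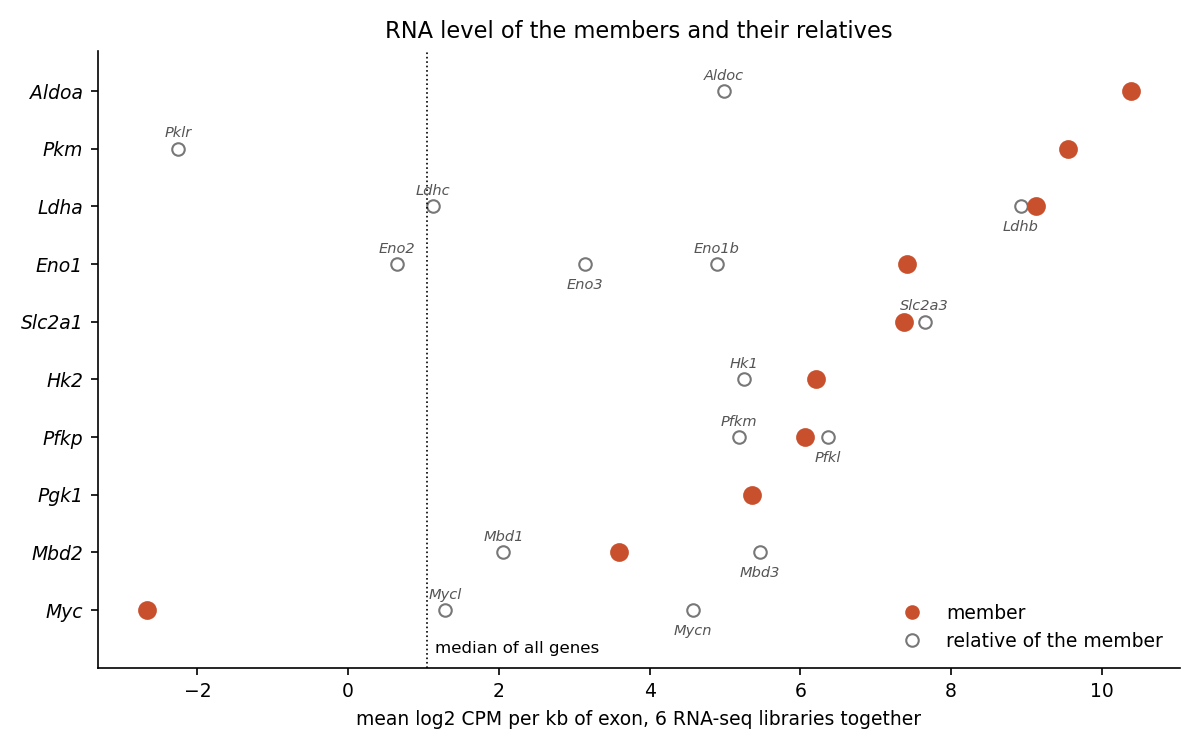
Mean log2 CPM per kb of exon over 6 RNA-seq libraries (x axis) for the 10 members (filled) and their relatives (open), with the median of all genes (1.05) as a dotted line. Aldoa (10.38), Pkm and Ldha are highest and Myc (−2.67) lies below the median, while its relatives Mycl and Mycn lie above it.

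miRNAs of the miR-290 cluster, the cluster that is known to target Mbd2, were looked up by sequence. They are shown grouped by seed, the bases from 2 to 8, which are in capitals, and come from RefSeq (GRCm38).
mmu-miR-291a-3p: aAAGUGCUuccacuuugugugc
mmu-miR-294-3p: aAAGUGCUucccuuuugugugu
mmu-miR-295-3p: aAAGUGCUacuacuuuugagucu
mmu-miR-290a-3p: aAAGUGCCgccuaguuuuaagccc
mmu-miR-291b-3p: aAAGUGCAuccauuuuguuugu
mmu-miR-293-3p: aGUGCCGCagaguuuguagugu

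The match AGCACTT to the seed that miR-291a, miR-294 and miR-295 share occurs 1 time each in the annotated 3′ untranslated regions of Mbd2, Pfkp and Ldha and not in those of the other 7 members, and 14.7% of 21020 genes hold it. GGCACTT, the match of miR-290a, occurs 1 time in Slc2a1 (8.06% of genes). TGCACTT of miR-291b (12% of genes) and GCGGCAC of miR-293 (1.32%) occur in no member. The matches in Pfkp and Ldha are shown with the seed match in capitals.
Pfkp, chr13:6581370-6581395, minus strand: acatagttatttatcAGCACTTtatg
Ldha, chr7:46855144-46855169, plus strand: tcttccccgtgtcctAGCACTTcact

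These matches are descriptions of sequence and not sites of action. None of the pile-up sites in Pfkp or Ldha lies there: the Ldha site is in exon 1 and the Pfkp sites are upstream of the last coding exon. The motif CACGTG, to which MYC proteins are known to bind, was sought on both strands of the promoters in RefSeq, from 250 bases before to 50 after each start. It was found in 1 of the 8 members in that table (Ldha, in 1 of 2 promoters), and 8.09% of 27025 genes hold it.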

How the data were processed

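Degradome-seq was measured in 8 libraries and RNA-seq in 6. For Degradome-seq, the authors trimmed reads with Trimmomatic (0.38.0) and used STAR to place them on GRCm38. Reads were then counted by the base at which they start. Pile-up sites were those that a model trained on known miRNA cleavage picked in both control replicates, a choice that can favour sites high in control cells. The authors deposited RPM for each site and library, on all mapped reads. For RNA-seq, the authors deposited the mean log2 CPM over both groups. The log2 fold changes, F statistics, p-values and FDR of the authors' own edgeR comparisons are also deposited and were not used. The members and lists were chosen with earlier results of these data known.

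Log2 of RPM plus 0.1 was compared within each line with limma (3.58.1, R 4.3.3; empirical Bayes with a mean-variance trend, two-sided, Benjamini-Hochberg adjustment over 3919 or 4666 sites), with calls at a log2 fold change past 1.5 in either direction together with an FDR under 0.05. The difference between lines was an interaction term. Depths were read from the steps of the RPM values (tolerance 0.05 reads, met by 100% of values), and the whole reads they give were tested with edgeR (4.0.16, quasi-likelihood, TMM) as an alternative. Named are all members, all sites naming a member and the list genes with a site. Unnamed sites inside members and the match to the linker (at least 3 bases) were added after the data were seen. Sites were placed with GENCODE vM21; of 1620 sites that name one of its transcripts, 1614 lay inside it. Stem-loops, of which the study lists the sequences, were refolded with RNAfold (2.7.2). Python 3.11.15, numpy 2.4.6 and pandas 2.3.3 were used. On simulated data, 100% of 200 sites with a log2 change of −3 were recovered in each table by either tool, and none was called among the 3719 (Drosha) or 4466 (Dicer) sites simulated without a change. The changed sites were drawn from the deeper ones, all sites had the same set spread between replicates, and no shift of all sites was simulated. The simulation thus does not cover smaller changes, the median of −0.93 in the Drosha table or the replicate spread of the Dicer table. Leaving out libraries, other pseudocounts, scalings, filters and thresholds were tried as alternatives. Some items are not reported here.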

Additional observations from a re-analysis of the deposited data

How the results depend on the processing

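The named member sites in the Drosha comparison kept a negative log2 fold change under the alternatives run, except Slc2a1, which was at 0.02 by edgeR on whole reads with TMM. The number called, 3, was 0 with a pseudocount of 1 RPM, 1 with 0.5 RPM, 0 with libraries centred on their medians, 0 by edgeR with TMM and between 0 and 3 with each library left out. At 1 RPM the log2 fold changes were −1.40 (Ldha), −1.09 (Hk2) and −0.98 (Pfkp), at 0.5 RPM −1.40 (Hk2) and −1.36 (Pfkp), and centred −1.28, −1.24 and −1.42 (Ldha, Hk2, Pfkp), each with an FDR under 0.05 but not past 1.5. By edgeR with TMM they were −1.07 (Ldha), −1.05 (Hk2) and −1.32 (Pfkp), with FDR values of 0.0309, 0.0603 and 0.0678. With each library left out they ranged from −2.39 to −1.37 (Ldha), from −2.04 to −1.62 (Hk2) and from −2.28 to −1.75 (Pfkp). The cause was not tested. In the Dicer comparison the value of 0.04 at the named Pkm site became −0.09 with library sizes from uniquely mapped reads and lay between −0.70 and 0.79 when libraries were left out one by one. The Hk2 value at 82774456 became 0.10 by edgeR with TMM. The other changes of sign there came with a library left out: Hk2 from −0.86 to 1.43 (82729555) and from −0.33 to 0.15 (82774456), the opposite-strand Pkm site at 59671694 (0.84) from −0.20 to 1.88, the Slc2a1 site at 119133399 from −0.96 to 0.44, Ldhb from −0.17 to 0.99 and Mta2 from −0.73 to 0.03. Over all sites of the Drosha table, centring moved the share of decreases among calls from 79.7% to 59.1%, and the number of decreases from 1473 to 871; edgeR with TMM gave 44.9% and 636 decreases, and edgeR without TMM 1525. In the Drosha table a pseudocount of 1 RPM gave 548 decreases, one of 0.5 RPM 953, and leaving out the first control library 907. In the Dicer table both edgeR fits called 0 sites, and leaving out the second Dicer-deficient library gave 1 decreased and 13 increased sites in place of 0. The Mbd2 level was above 78% of genes, and 66.1% of those with a mean log2 CPM of at least 0.

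Same-numbered libraries deviated together only weakly in the Drosha line (Pearson correlation 0.13) and more in the Dicer line (0.53), and with 2 pairs a line the numbers do not show pairing. With the replicate block the values of Ldha (−1.88), Hk2 (−1.83) and Pfkp (−2.01) kept their calls, the Ldha difference between lines (−1.07) had FDR = 0.105 by limma, and calls over all sites went from 1473 to 1475 decreased in the Drosha table and from 0 to 67 decreased and 119 increased in the Dicer table, none of them a member site. Depth limits the low sites: under about 10 reads, as in Pfkp, Pkm and the Hk2 site at 82728901, counting error alone is large.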
